A study of Mus musculus with 6 samples.

Results

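The signals of 10 keratins were compared in adult mouse lung: the stratified epithelial keratins Krt4, Krt13, Krt5, Krt14, Krt15 and Krt6a, and the simple epithelial keratins Krt7, Krt8, Krt18 and Krt19. They were chosen by name, as every probe set that the platform annotation assigns to a single one of these symbols. This gave 19 probe sets for 10 genes (13 for the 6 stratified and 6 for the 4 simple keratins), out of 45037 probe sets for 18193 genes. The choice was made with the levels of some of them on these arrays already known, so the contrast between stratified and simple keratins is given below as a description and not as a test.

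Total RNA was measured on Affymetrix expression arrays, 1 array per sample. The AKR_F1 group held 3 lung samples of adult female mice from a cross of the inbred strains AKR/J and FVB/NJ. The DBA_F1 group held 3 lung samples of adult female mice from a cross of DBA/2J and FVB/NJ. The labels name no treatment apart from Avertin anaesthesia at death, and FVB/NJ is a parent in both crosses, so the strain of the remaining parent is what separates the groups. Lung tissue was snap frozen. The labels give no animal for each array, so p-values measure only the spread between these samples. Signals are log2 values, and differences are AKR_F1 minus DBA_F1 on that scale.

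Keratins form the intermediate filaments of epithelial cells. A filament is built from pairs of 1 acidic type I and 1 basic type II keratin, and the pair in use marks the epithelium. Krt8 (type II) and Krt18 (type I) are the primary pair of simple epithelia, joined there by Krt7 (type II) and Krt19 (type I), and line airways, alveoli and mesothelium in the lung. Krt5 (type II) with Krt14 and Krt15 (type I) fills the basal layer of stratified epithelia and the basal cells of the airway. Krt4 (type II) and Krt13 (type I) are the pair of the upper layers of non-cornified and partly cornified mucosae such as the oesophagus and tongue. Krt6a (type II) is induced in wounded and hyperproliferative epithelium.

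Lung markers were present on every array: the type 2 cell surfactant protein Sftpc had 14.26 to 14.34, the type 1 cell receptor Ager 13.67 to 13.99 and the club cell secretoglobin Scgb1a1 14.31 to 14.41. Array medians lay between 5.46 and 5.49. AKR_F1 replicate 3 stood apart from its group. Across tested probe sets it correlated at no more than 0.976 with AKR_F1 replicates 1 and 2, which correlated at 0.995 with each other, and at 0.984 or more with the DBA_F1 arrays. Keratin values are therefore given array by array, and group differences with and without this array.

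The promoters of the stratified keratins Krt13 and Krt5, whose signals spanned the arrays widely, are shown beside those of the simple pair Krt8 and Krt18, whose signals stayed level. Each run is the 250 bases before the annotated start in RefSeq (GRCm38.p6), 5′ to 3′ on the gene's own strand. Capitals mark ATAAA, a core of the TATA box, and CACCC, a motif bound by Krüppel-like factors, each on either strand.
Krt13 (chr11:100121567-100121816, minus strand): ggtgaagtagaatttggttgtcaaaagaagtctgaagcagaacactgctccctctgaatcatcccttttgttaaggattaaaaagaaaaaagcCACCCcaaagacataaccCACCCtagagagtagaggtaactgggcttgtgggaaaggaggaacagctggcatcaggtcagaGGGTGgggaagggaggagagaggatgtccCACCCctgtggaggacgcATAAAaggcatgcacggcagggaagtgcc
Krt5 (chr15:101712906-101713155, minus strand): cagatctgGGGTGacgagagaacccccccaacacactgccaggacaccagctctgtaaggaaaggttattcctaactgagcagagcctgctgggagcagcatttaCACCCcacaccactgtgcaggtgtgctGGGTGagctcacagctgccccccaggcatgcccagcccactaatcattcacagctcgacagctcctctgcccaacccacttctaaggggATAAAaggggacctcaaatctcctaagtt
Krt8 (chr15:102004343-102004592, minus strand): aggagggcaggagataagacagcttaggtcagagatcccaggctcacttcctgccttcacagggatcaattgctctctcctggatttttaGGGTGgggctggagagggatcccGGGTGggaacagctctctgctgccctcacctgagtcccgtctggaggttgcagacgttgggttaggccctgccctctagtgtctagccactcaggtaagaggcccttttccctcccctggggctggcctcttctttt
Krt18 (chr15:102027966-102028215, plus strand): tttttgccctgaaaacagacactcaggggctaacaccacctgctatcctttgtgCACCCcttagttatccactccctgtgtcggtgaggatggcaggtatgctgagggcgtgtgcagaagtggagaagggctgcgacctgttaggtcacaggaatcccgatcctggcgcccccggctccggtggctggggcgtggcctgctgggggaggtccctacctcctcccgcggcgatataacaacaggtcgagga
Krt13 and Krt5 both held ATAAA on the coding strand with its first base 29 bases before the start. Of all 32817 promoters in the table, 4.25% held it there at 20 to 40 bases. The runs of Krt8 and Krt18 held no ATAAA in these 250 bases, and that of the simple keratin Krt7 held it 1 time, outside that distance. The search for ATAAA misses similar letters such as the TATAA near the end of the Krt18 run, so other TATA-like runs were not counted. CACCC occurred 4 times in Krt13, 3 times in Krt5, 2 times in Krt8 and 1 time in Krt18, and 52.0% of all promoters held it at least 1 time. It occurred 1 time each before the stratified keratin Krt14, a further annotated start of Krt13 and the simple keratin Krt7. Its number therefore did not separate stratified from simple keratins. GGGCGG, the Sp1 motif, was in none of these 4 runs but in 4 places before Krt7, against 32.7% of all promoters with a match. TGANTCA, a looser form of the AP-1 motif that allows any base at the centre, occurred 1 time in the Krt13 run and in 6.75% of all promoters. The match in the Krt13 run shown had A at the centre, where the AP-1 motif proper has C or G. Before the further annotated start of Krt13, TGANTCA occurred 2 times, both with C at the centre. These matches describe letters in the reference and say nothing of binding in these lungs. The further annotated start of Krt13 and the promoter of Krt14 had no ATAAA at 20 to 40 bases before the start. The promoters of Krt4, Krt15, Krt6a and Krt19 are not shown.

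The Krt4 and Krt13 pair showed the widest range of the 10 keratins, and most of it lay between arrays of AKR_F1. Krt13 had 3.48, 3.30 and 12.13 on AKR_F1 replicates 1 to 3, against 11.88, 12.46 and 11.85 for the DBA_F1 replicates in the same numbering. Krt4 had 4.56, 4.88 and 12.80 on the AKR_F1 arrays, and 12.47, 13.05 and 12.42 on the DBA_F1 arrays. AKR_F1 replicates 1 and 2 were low for both genes, AKR_F1 replicate 3 lay inside the DBA_F1 range, and so the groups overlapped. The 6 arrays spanned 9.16 log2 units for Krt13 and 8.49 for Krt4. AKR_F1 replicate 3 differed from the DBA_F1 mean by 0.067 for Krt13 and 0.15 for Krt4, less than the DBA_F1 spread (SD of 0.34 and 0.35, n = 3). The low values of Krt13, and that of Krt4 on AKR_F1 replicate 1, lay below 4.72, the level under which probe sets were left out of the test. No detection call was used, so how far these values lie above background is not known. Because the tissue was measured in bulk, fewer cells of a type and less RNA per cell cannot be told apart.

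The other probe sets of this pair were also lowest on AKR_F1 replicates 1 and 2. The other probe set of Krt4 spanned 8.94 log2 units, with 4.78, 4.18 and 12.87 in AKR_F1 and 12.62, 13.13 and 12.58 in DBA_F1. The other probe sets of Krt13 spanned 5.97 and 5.24, with 9.33 and 7.40 on AKR_F1 replicate 3. On both, AKR_F1 replicate 3 again lay between the lowest and highest DBA_F1 arrays. By the platform's naming, the representative probe sets of Krt4 and Krt14 and these 2 of Krt13 may cross-hybridize with similar sequences, so close paralogs can share their signal.

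The basal keratins were also lowest on AKR_F1 replicates 1 and 2, with smaller spans. Krt15 had 5.20, 5.80 and 8.69 in AKR_F1, and 8.69, 9.19 and 8.30 on the DBA_F1 arrays. Krt5 had 6.41, 5.98 and 8.75 in AKR_F1, and 8.40, 8.95 and 8.16 in DBA_F1. Krt14 had 4.59, 4.11 and 7.48 in AKR_F1, and 6.795, 7.45 and 6.77 in DBA_F1. The spans were 3.996, 2.97 and 3.37 log2 units. Krt5 and Krt15 stayed above the filter level on AKR_F1 replicates 1 and 2, whereas Krt14 lay below it there. DBA_F1 replicate 2 was the highest array for Krt4, Krt13, Krt5 and Krt15, and AKR_F1 replicate 3 was the highest for Krt14 by a margin smaller than the DBA_F1 SD of 0.38. The other tested probe set of Krt14 had 4.20, 3.52 and 6.42 in AKR_F1 and 5.82, 6.32 and 5.68 in DBA_F1. The remaining probe set of Krt14 was flat at 3.23 to 3.28, below the filter level, and was not tested.

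Krt6a, also a stratified keratin, did not vary with them. It had 5.76, 5.62 and 5.72 on the AKR_F1 arrays, and 5.74, 5.83 and 5.71 on the DBA_F1 arrays, a span of 0.21 log2 units. Its difference was -0.060 ± 0.075 (SE, n = 3 per group, limma adjusted p = 0.725), with a 95% confidence interval of -0.24 to 0.12. The other probe sets of Krt6a lay at 4.17 to 4.45 and 2.83 to 3.12 and were not tested.

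**Figure D1:**
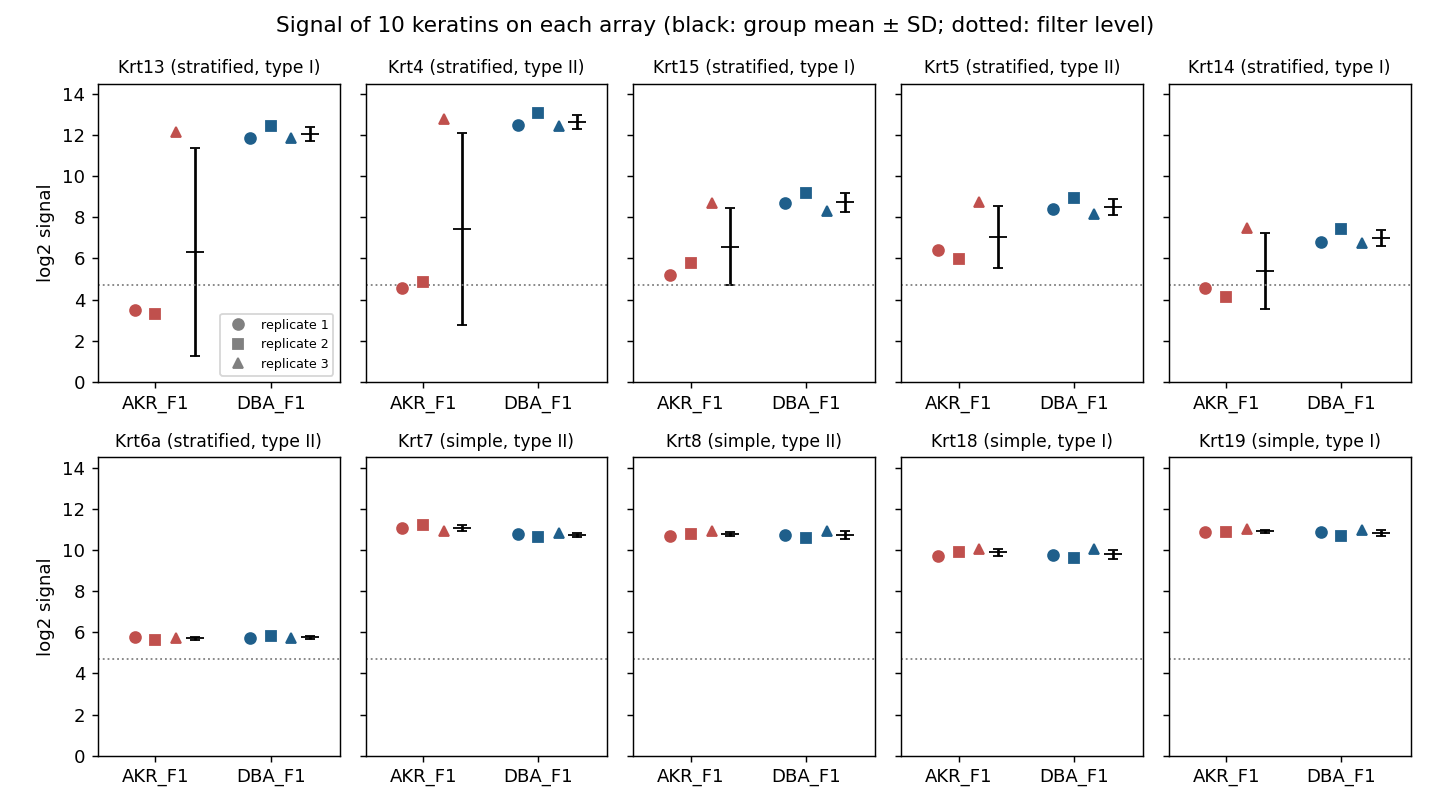
Log2 signal of the representative probe set of each keratin on each array, with AKR_F1 on the left and DBA_F1 on the right of each panel; black marks give the group mean ± SD (n = 3) and the dotted line the filter level of 4.72. Krt13, Krt4, Krt15, Krt5 and Krt14 are low on AKR_F1 replicates 1 and 2 and high on AKR_F1 replicate 3 and all DBA_F1 arrays, whereas Krt6a and the simple keratins are level.

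The simple keratins were high and nearly level on all 6 arrays. Krt8 had 10.67, 10.76 and 10.90 in AKR_F1, and 10.70, 10.56 and 10.92 in DBA_F1. Its partner Krt18 had 9.71, 9.91 and 10.05 in AKR_F1, and 9.73, 9.62 and 10.04 in DBA_F1. Krt19 had 10.86, 10.88 and 10.997 in AKR_F1, and 10.85, 10.68 and 10.95 in DBA_F1. For these 3 genes AKR_F1 replicate 3 and DBA_F1 replicate 3 were the highest arrays and DBA_F1 replicate 2 the lowest, and the groups overlapped. Their spans were 0.36, 0.43 and 0.32 log2 units. The difference was 0.051 ± 0.10 for Krt8, 0.090 ± 0.13 for Krt18 and 0.082 ± 0.078 for Krt19 (SE, limma adjusted p = 0.836, 0.757 and 0.627). The 95% confidence intervals were -0.19 to 0.29, -0.21 to 0.39 and -0.10 to 0.27. With 3 arrays a group, differences within these intervals remain compatible with the values. The other probe sets of Krt8 differed by 0.037 and -0.0013.

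Krt7 was the only 1 of the 10 keratins whose groups did not overlap by the representative probe set. It had 11.06, 11.20 and 10.92 on the AKR_F1 arrays, and 10.78, 10.62 and 10.81 on the DBA_F1 arrays. The mean was 11.06 ± 0.14 in AKR_F1 and 10.74 ± 0.10 in DBA_F1 (SD, n = 3 each). The difference of 0.32 ± 0.084 (SE) did not pass over all probe sets (limma adjusted p = 0.111), with a 95% interval of 0.12 to 0.52. Of all tested probe sets 14.6% were likewise without overlap and higher in AKR_F1. Without AKR_F1 replicate 3 the difference was 0.39 and passed (adjusted p = 0.0419). Over the other fits that left out 1 array, the adjusted p reached 0.304. The alveolar lists, whose cells express Krt7, had their highest means on AKR_F1 replicates 1 and 2 as well. Centred on their mean over the 6 arrays, 9 type 1 markers stood at 0.15, 0.13 and -0.039 on the AKR_F1 arrays and at -0.018, -0.16 and -0.059 on the DBA_F1 arrays. The 9 type 2 markers stood at 0.16, 0.13 and 0.039 in AKR_F1 and at -0.015, -0.18 and -0.13 in DBA_F1. Their part in the Krt7 values was not tested.

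Over all 6 arrays 0 of the 10 keratins passed in the limma fit, against 2.62% of the 27022 tested probe sets (1.57% higher and 1.05% lower in AKR_F1). At an unadjusted p under 0.05 stood 4 of them, Krt4, Krt13, Krt15 and Krt7, and 18.4% of all tested probe sets. By the representative probe sets, the 6 stratified keratins all had negative differences with a median of -1.89. The 4 simple keratins all had positive differences with a median of 0.086, beside a median of 0.023 over all tested probe sets. The confidence intervals of Krt5, Krt14, Krt6a, Krt8, Krt18 and Krt19 included 0, so their signs are not established. The other probe sets of Krt8 differed by 0.037 and -0.0013. Without AKR_F1 replicate 3 or DBA_F1 replicate 2, Krt8 had -0.011 and -0.035, and it stayed positive without any other single array. Of the untested probe sets of Krt6a, 1 averaged higher in AKR_F1 (4.39 against 4.27) and the other lower (2.94 against 3.04). The largest differences had the widest errors. Krt13 averaged 6.30 ± 5.05 in AKR_F1 and 12.06 ± 0.34 in DBA_F1 (SD, n = 3 each), a difference of -5.76 ± 2.20 (SE, adjusted p = 0.23). Krt4 averaged 7.41 ± 4.67 in AKR_F1 and 12.65 ± 0.35 in DBA_F1, a difference of -5.24 ± 2.03 (adjusted p = 0.237). Krt15, Krt5 and Krt14 differed by -2.17, -1.46 and -1.61 (adjusted p = 0.235, 0.308 and 0.346). Without AKR_F1 replicate 2 the difference was -0.92 for Krt5 and -0.97 for Krt14 (adjusted p = 0.592 and 0.644).

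In the fit without AKR_F1 replicate 3, 6 of the 10 keratins passed, 5 stratified ones lower in AKR_F1 and Krt7 higher, against 4.33% of all probe sets in that fit (2.26% lower and 2.08% higher in AKR_F1). The difference was -8.68 ± 0.19 for Krt13, -7.93 ± 0.20 for Krt4, -3.23 ± 0.28 for Krt15, -2.66 ± 0.24 for Krt14 and -2.31 ± 0.24 for Krt5 (SE, limma adjusted p = 1.16e-05, 1.5e-05, 0.0019, 0.00235 and 0.00422). Krt6a, Krt8, Krt18 and Krt19 had adjusted p of 0.744, 0.971, 0.981 and 0.854 there. Without any other single array 0 of the 10 passed, where the share of all probe sets called was 0.733% and 0.736% without AKR_F1 replicates 1 and 2, and 2.16%, 0.921% and 2.64% without DBA_F1 replicates 1, 2 and 3. With the replicate number as a block it was also 0, against 1.99%. The array had been seen to stand apart before it was left out, and its genotype is the same as that of replicates 1 and 2 by the labels, so these values describe the other 5 arrays and do not establish a difference between the genotypes.

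Relative to the simple keratins, the stratified keratins were lower on AKR_F1 replicates 1 and 2 than on the other arrays. The levels of different probe sets are not comparable, so each class mean was centred on its own mean over the 6 arrays. The stratified mean stood at -2.76, -2.81 and 1.501 log2 units in AKR_F1, and at 1.24, 1.73 and 1.11 in DBA_F1. The simple mean stood at -0.018, 0.097 and 0.13 on the AKR_F1 arrays, and at -0.073, -0.22 and 0.090 on the DBA_F1 arrays. Stratified minus simple was -2.74, -2.91 and 1.38 on the AKR_F1 arrays, and 1.31, 1.95 and 1.02 in DBA_F1. The spread of this contrast within AKR_F1 (SD of 2.43) compares with a gap of -2.85 between the group means, and the SD within DBA_F1 was 0.48. DBA_F1 replicate 2 had both the highest stratified and the lowest simple mean of the 6 arrays.

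**Figure D2:**
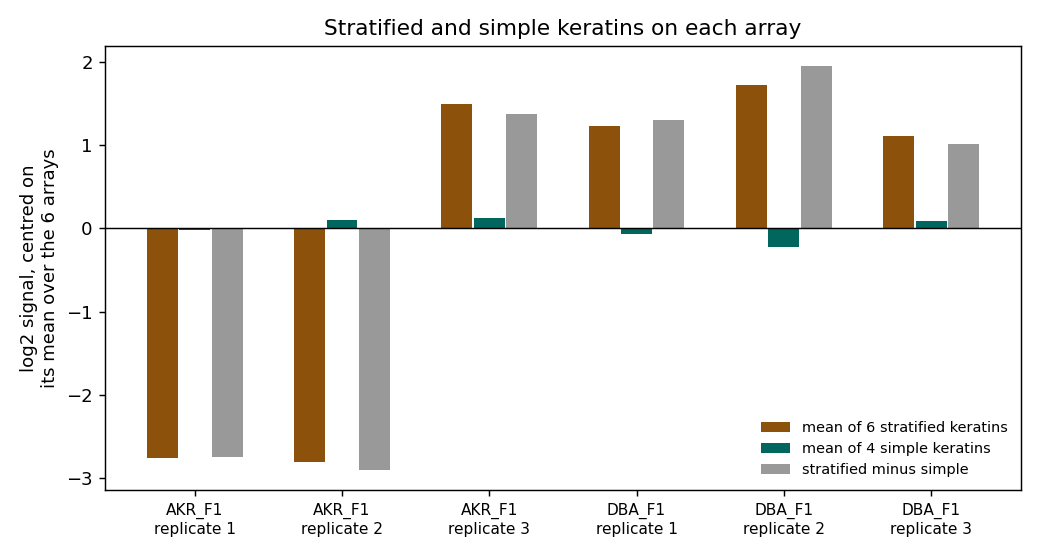
Mean log2 signal of the 6 stratified and the 4 simple keratins and the difference between them on each array, each centred on its mean over the 6 arrays (no error bars, 1 value per array). The stratified mean lies at -2.76 and -2.81 on AKR_F1 replicates 1 and 2 and above 0 on the other arrays, and the simple mean stays between -0.22 and 0.13.

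With each gene centred on its own mean, Krt8 and Krt18 differed by a root mean square of 0.049 log2 units over the 6 arrays, and Krt8 and Krt19 by 0.048. Krt5 and Krt14 differed by 0.22 and Krt4 and Krt13 by 0.37, which is more than some genes that are no keratins differed from Krt4, Krt5 and Krt14. Krt5 and Krt15 differed by 0.51, most on AKR_F1 replicate 1, where Krt5 stood 1.08 above the profile of Krt15. Krt7 differed from Krt8, Krt18 and Krt19 by 0.20, 0.21 and 0.17, and relative to each of them it was highest on AKR_F1 replicates 1 and 2. These are descriptions over 6 arrays.

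The keratin genes lie in 2 clusters, type I on chromosome 11 and type II on chromosome 15, with Krt18 as a type I gene at the end of the type II cluster. Of 24 measured keratin genes on chromosome 11, 4 spanned more than 2 log2 units over the arrays, and of 24 on chromosome 15 it was 3. By the same measure, the brightest probe set of a gene whether tested or not, 1.11% of all 18193 genes did. Krt13, Krt15, Krt14, Krt5 and Krt4 among them are members of the 10. As those were chosen with some levels on these arrays already known, the counts are no test of the clusters. Of the 38 other keratins 2 spanned more than 2 log2 units, Krt32 and Krt78. Genes with wide and narrow spans were neighbours. Krt13 and Krt15 lie next to each other, and Krt19, with a span of 0.32, follows them ahead of Krt14 on the far side of Krt9. On chromosome 15 Krt6a (0.21) lies beside Krt5 (2.97), and Krt8 and Krt18 lie next to each other beside Krt78 (3.16). The gene order is that of RefSeq for GRCm38.p6.

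**Figure D3:**
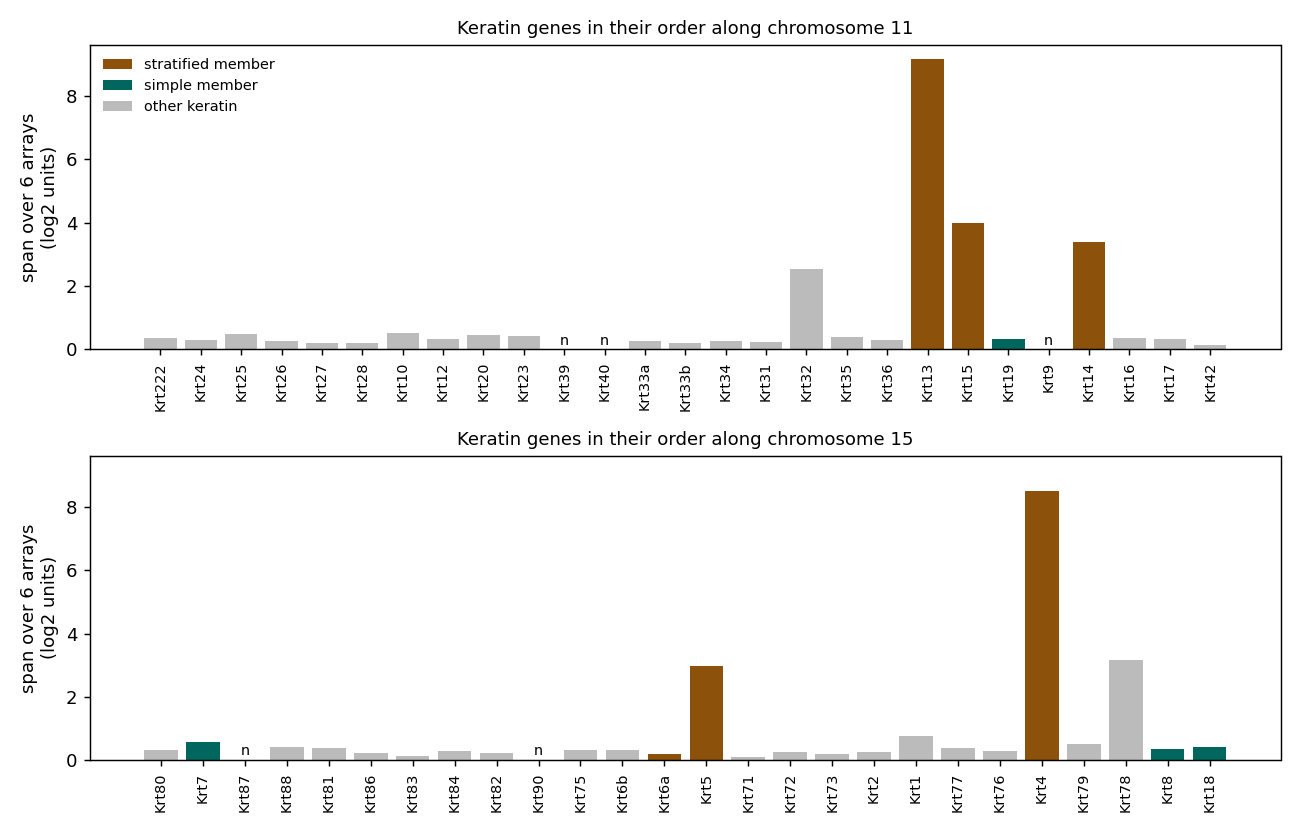
Span of the log2 signal over the 6 arrays (highest minus lowest array) for each keratin gene in its order along chromosomes 11 and 15, by the representative probe set; n marks genes with no probe set of a single symbol. Krt13 and Krt4 reach 9.16 and 8.49, Krt15, Krt14, Krt78, Krt5 and Krt32 lie between 2.53 and 3.996, and every other measured keratin is at or under 0.77.

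Besides the 10, 38 other keratin genes were measured, 15 of them by a tested probe set. Of the 15, 0 passed in the limma fit, beside 2.62% of all tested probe sets. At an unadjusted p under 0.05 stood 2 of them, Krt78 and Krt32, a smaller share than the 18.4% of all tested probe sets. Krt78, a type II keratin, had 5.90, 5.95 and 8.49 on the AKR_F1 arrays, and 8.47, 9.06 and 8.27 on the DBA_F1 arrays. The hair keratin Krt32 (type I) had 5.03, 4.67 and 6.35 in AKR_F1, and 6.34, 7.21 and 6.801 in DBA_F1. Both were low on AKR_F1 replicates 1 and 2, as Krt13 and Krt4 were. Krt78 differed by -1.82 (limma adjusted p = 0.219) and Krt32 by -1.43 (adjusted p = 0.152) over all arrays, and by -2.67 and -1.93 without AKR_F1 replicate 3 (adjusted p = 0.00151 and 0.0101). The next widest spans were those of the epidermal keratins Krt1 (0.77) and Krt10 (0.50). Krt1 was below the filter level on all arrays, with at most 4.34.

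The genes whose centred profile lay nearest to Krt13 over the 6 arrays were the cornified envelope protein loricrin (Lor), with a root mean square difference of 0.23 log2 units, then Krtdap (0.49), Serpinb12 (0.62), the metallothionein Mt4 (0.87) and Crct1 (0.87). Nearest to Krt4 were Serpinb12 (0.27), Lor (0.29), Krtdap (0.32), Crct1 (0.53) and Mt4 (0.60). Lor had 3.72, 3.22 and 11.77 on the AKR_F1 arrays, and 11.64, 12.25 and 11.40 on the DBA_F1 arrays. For Krt5 they were the late cornified envelope gene Lce1i (0.097), the protease inhibitor Spink5 (0.15), Psapl1 (0.16), Chl1 (0.19) and Fads2b (0.19). For Krt15 they were Capns2 (0.17), the galectin Lgals7 (0.21), the transglutaminase Tgm3 (0.22), the lipoxygenase Alox12b (0.23) and Sptssb (0.24). Nearest to Krt14 was a gene of fast skeletal muscle, Mybpc2 (0.17), followed by 2610528A11Rik (0.17), the retinoic acid binding protein Crabp2 (0.18), Tmem45a2 (0.19) and the desmosome protein plakophilin 1 (Pkp1, 0.19).

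The lists of squamous differentiation, basal cell, desmosome and transcription factor genes all had their lowest means on AKR_F1 replicates 1 and 2. Of their genes 0 passed in the limma fit over all 6 arrays apart from a pair of laminin chains, beside 2.62% of all tested probe sets. Of 20 measured squamous differentiation genes 17 were tested, with a median difference of -2.24, and 16 of the 17 spanned more than 2 log2 units, as 1.03% of all tested probe sets did. At an unadjusted p under 0.05 stood 9 of the 17 squamous genes, 3 of 9 basal cell genes, 8 of 19 desmosome and hemidesmosome genes and 4 of 16 transcription factors, beside 18.4% of all tested probe sets. Besides Lor, Krtdap had 3.82, 3.18 and 11.49 in AKR_F1, and 10.92, 11.71 and 10.82 in DBA_F1. Of 9 tested basal cell genes 2 spanned more than 2 log2 units, Dapl1 (2.11) and the hemidesmosome collagen Col17a1 (2.09). Of 19 tested desmosome and hemidesmosome genes 6 did, with the desmocollin Dsc1 at 3.29, 3.11 and 7.15 in AKR_F1 and 6.84, 7.43 and 6.84 in DBA_F1, and Pkp1 at 5.89, 5.51 and 8.80 in AKR_F1 and 8.46, 9.18 and 8.51 in DBA_F1. Among 16 tested epithelial transcription factors the widest spans were those of Grhl3 (2.36) and the basal cell factor Trp63 (1.66). Trp63 had 4.39, 4.49 and 5.55 in AKR_F1, and 5.29, 6.05 and 4.80 in DBA_F1. Without AKR_F1 replicate 3 the genes that passed as lower in AKR_F1 were 16 of 17 in the squamous list, 5 of 9 in the basal cell list, 11 of 19 in the desmosome and hemidesmosome list and 4 of 16 transcription factors, against 2.26% of all probe sets. Genes bright on some arrays alone had passed the filter through those arrays.

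The laminin chains Lama3 and Lamb3, which anchor hemidesmosomes to the basement membrane, were higher on every AKR_F1 array than on any DBA_F1 array. The same held for 14.6% of all tested probe sets. Lama3 had 9.35, 9.33 and 9.20 on the AKR_F1 arrays, and 8.95, 8.72 and 8.77 on the DBA_F1 arrays. Lamb3 had 8.87, 9.01 and 8.85 in AKR_F1, and 8.52, 8.32 and 8.42 in DBA_F1. The differences were 0.48 ± 0.076 and 0.49 ± 0.072 (SE, limma adjusted p = 0.0266 and 0.0207). They passed in 2 and 3 of the 6 fits that left out 1 array. The adjusted p reached 0.12 for Lama3 without AKR_F1 replicate 2 and 0.0825 for Lamb3 without AKR_F1 replicate 1. Lama3 did not pass, either, when AKR_F1 replicate 1, DBA_F1 replicate 2 or DBA_F1 replicate 3 was left out, and Lamb3 without AKR_F1 replicate 2 or DBA_F1 replicate 2 and with the replicate number as a block (0.0575).

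Genes of simple epithelium were level, like Krt8, Krt18 and Krt19. Of 14 tested genes 0 spanned more than 2 log2 units, beside 1.03% of all tested probe sets, and their median difference was 0.011. Of the 14 only the protease inhibitor Spint1 passed, lower in AKR_F1, as 1.05% of all tested probe sets did. Spint1 had 7.61, 7.55 and 7.64 on the AKR_F1 arrays, against 8.16, 8.12 and 8.16 on the DBA_F1 arrays (-0.55 ± 0.052 SE, limma adjusted p = 0.00442). It passed in all 6 fits that left out 1 array. The tight junction gene Cldn4 had the widest span there (0.70 log2 units, adjusted p = 0.253).

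Skeletal muscle markers were low on the same arrays as the stratified keratins. The mean of 11 skeletal muscle markers was 5.41, 4.89 and 9.02 on the AKR_F1 arrays, and 8.37, 8.86 and 8.42 on the DBA_F1 arrays, with Myh1 at 3.80 and 3.29 on AKR_F1 replicates 1 and 2 and at 9.97 to 10.77 on the others. All 9 that were tested spanned more than 2 log2 units, as 1.03% of all tested probe sets did. Of the 9, 0 passed over all arrays, beside 2.62% of all tested probe sets. At an unadjusted p under 0.05 stood 1 of them, beside 18.4%. The mean of 20 squamous differentiation genes was 5.01, 5.09 and 8.65 in AKR_F1, and 8.36, 8.88 and 8.22 in DBA_F1. The mean of 8 skin and hair markers was 3.85, 3.74 and 5.13 in AKR_F1, and 4.93, 5.10 and 4.86 in DBA_F1, and Lor was the only 1 of them to span more than 2 log2 units. Adipocyte markers did not follow that order: 7 of them averaged 7.76, 7.01 and 6.81 in AKR_F1, and 8.91, 9.44 and 8.43 in DBA_F1. Of the 7, all tested, 5 passed as lower in AKR_F1, beside 1.05% of all tested probe sets: Adipoq, Fabp4, Cidec, Lep and Lipe. They passed in 3, 1, 5, 0 and 3 of the 6 fits that left out 1 array. The mean of 9 thymocyte markers was 6.18, 5.42 and 7.22 in AKR_F1, and 5.24, 5.31 and 5.22 in DBA_F1, with Rag1 at 6.51, 3.08 and 8.55 in AKR_F1 and at 2.84 to 3.004 in DBA_F1. Thymic epithelial cells express Krt5, Krt14, Krt8 and Krt18. The mean of 6 of their markers was 4.70, 4.52 and 5.61 in AKR_F1, and 4.51, 4.48 and 4.54 in DBA_F1. Of these 6 markers 3 were tested, of which 1 spanned more than 2 log2 units and 0 stood at an unadjusted p under 0.05. Ccl25 and Prss16 were picked after their values were seen, and values of the remaining markers are not given. Ccl25 was 7.93 on AKR_F1 replicate 3 and 4.98 to 5.27 on the other arrays, and Prss16 was 6.93 and 4.03 to 4.35. The part of these tissues in the keratin values was not tested.

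The lists of other lung cells varied less than the stratified keratins. The mean of 8 mesothelial markers, cells that express Krt8, Krt18, Krt19 and Krt7, ranged from 7.51 to 7.59 in AKR_F1 and from 7.40 to 7.49 in DBA_F1. The mean of 10 ciliated cell markers ranged from 7.40 to 7.58 in AKR_F1 and from 7.46 to 7.68 in DBA_F1. For 8 club and secretory cell markers it ranged from 10.82 to 11.46 in AKR_F1 and from 11.42 to 12.09 in DBA_F1, and for 7 smooth muscle markers from 9.21 to 9.42 in AKR_F1 and from 9.40 to 9.87 in DBA_F1. The smooth muscle list had its lowest means on AKR_F1 replicates 1 and 2, and on all 4 lists AKR_F1 replicates 1 and 2 lay within 1 log2 unit of AKR_F1 replicate 3. Over all arrays 1 of 8 tested mesothelial genes (Rspo1) and 3 of 9 type 2 cell genes (Sftpb, Napsa and Lpcat1) passed as higher in AKR_F1. Of 8 tested club and secretory genes 1, Scgb3a1, passed as lower. Of 10 ciliated, 7 smooth muscle and 9 type 1 cell genes 0 passed. Among all tested probe sets 1.57% passed as higher and 1.05% as lower. Rspo1, Sftpb, Napsa, Lpcat1 and Scgb3a1 each passed in at most 2 of the 6 fits that left out 1 array.

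**Figure D4:**
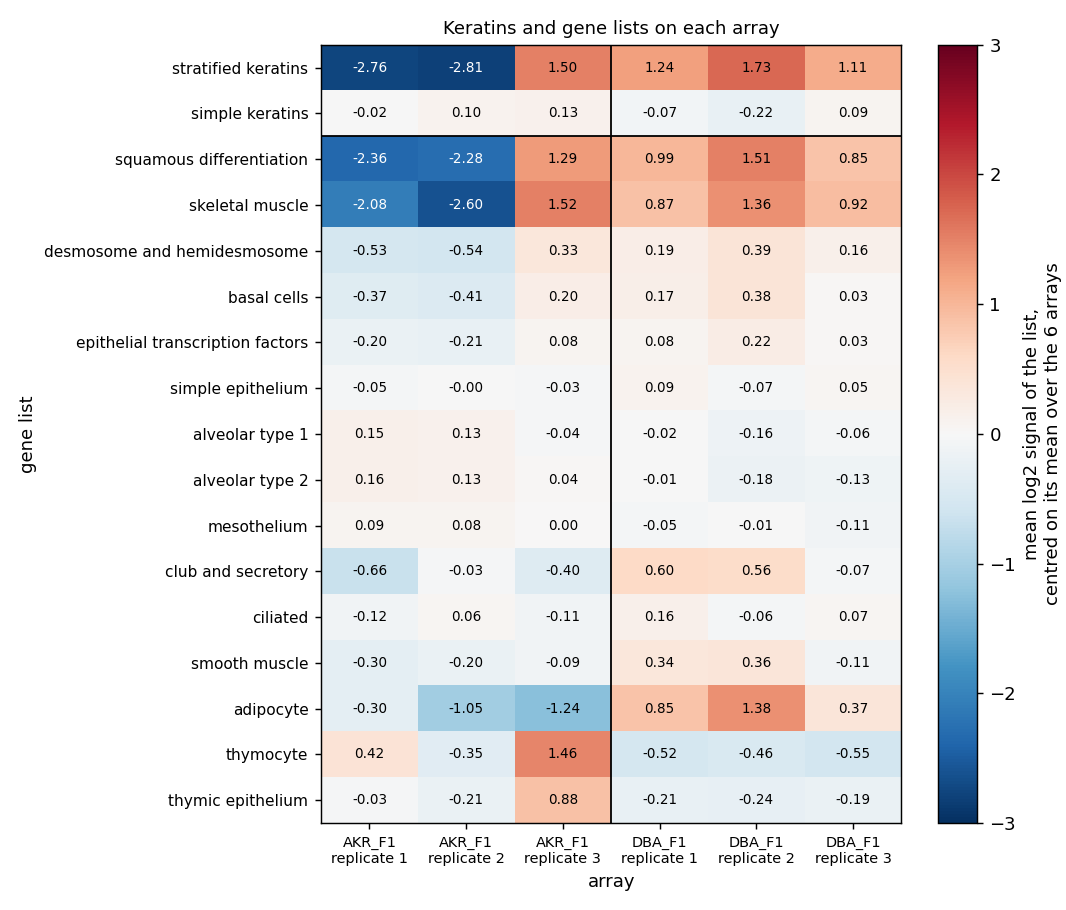
Mean log2 signal of the stratified and simple keratins and of 15 gene lists on each array, each centred on its mean over the 6 arrays (printed in each cell, colour scale from -3 to 3), with AKR_F1 left and DBA_F1 right of the line. The squamous differentiation list (-2.36 and -2.28) and the skeletal muscle list (-2.08 and -2.60) share the low values of the stratified keratins on AKR_F1 replicates 1 and 2, and the simple epithelium and mesothelium lists stay within 0.11 of their mean.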

How the data were processed

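The deposited table gives a log2 signal for every probe set on each array. MAS5 and RMA are named in the submitters' processing notes, without versions, and which of them made the table is not given in the sources used here. The deposited log2 values had nearly equal array medians and were used unchanged, with no detection calls. After removal of 64 control probe sets, the platform annotation gave 1 symbol to 34945 probe sets, several to 932 and none to 9160. Probe sets whose mean log2 signal ranked in the bottom 40% (up to 4.72) were not tested, which kept 27022, among them 16 of the 19 keratin probe sets. A gene is represented by its probe set with the highest mean. Keratins that were bright on some arrays passed this filter through those arrays.

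Group means were compared by limma (version 3.58.1, under R 4.3.3) using lmFit and a trended eBayes (4 residual and 3.06 prior degrees of freedom), two-sided, with Benjamini-Hochberg adjustment over all tested probe sets and calls at an adjusted p under 0.05. The fit was tested on simulated data. The number of arrays limits the precision. Further genes were named by rule: the 5 with the smallest root mean square difference to each keratin spanning over 2 log2 units, the 4 other keratins with the widest spans, and the called genes and the 2 widest of each epithelial list. Myh1, Rag1, Ccl25, Prss16 and the lung markers Sftpc, Ager and Scgb1a1 were named after their values were seen. The keratins and lists were chosen with earlier results of these data known, and the promoter motifs after the sequences were seen. Alternatives were other normalizations, filters and eBayes settings, weighted arrays, a replicate block, omission of single arrays, and averaging a gene's probe sets. Gene order and promoters came from RefSeq (GRCm38.p6).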

Additional observations from a re-analysis of the deposited data

How the results depend on the processing

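Of 147 differences of the 10 keratins under other settings, 139 kept their direction and their side of the threshold, 6 passed only without AKR_F1 replicate 3 and 2 changed sign: Krt8 had -0.011 without AKR_F1 replicate 3 and -0.035 without DBA_F1 replicate 2 (adjusted p of 0.971 and 0.918), within a range of -0.035 to 0.15 over the 6 fits that left out 1 array. The cause was not tested. With 1 array left out, the number of keratins called ran from 0 to 6 and the number of probe sets called from 198 to 1171, the highest in both cases without AKR_F1 replicate 3. Without DBA_F1 replicate 2 it was 249 probe sets. Array weights called 1198 probe sets, against 707 in the main setting, and 0 keratins. Arrays with the same replicate number had deviations from their group means that correlated at 0.31, -0.23 and -0.050. With 3 arrays a group these deviations depend on each other, so the correlations cannot decide whether the arrays were paired. With the replicate block 539 probe sets and 0 keratins were called. Averaging probe sets gave -0.95 for Krt14, against -1.61. The 60% filter left out Krt14 and Krt6a. Over 8 alternatives the centred stratified minus simple contrast kept its sign on all 6 arrays. It ran from -3.30 to -2.15, -3.45 to -2.29 and 1.09 to 1.68 on AKR_F1 replicates 1 to 3, and from 1.02 to 1.55, 1.64 to 2.28 and 0.71 to 1.24 on DBA_F1 replicates 1 to 3. In alternatives chosen after seeing the data, 9 skeletal muscle and 3 adipocyte genes were called without AKR_F1 replicate 3, against 0 and 5 over all arrays. The share of all tested probe sets called was 4.33% in that fit and 2.62% over all arrays. Krt13 and Krt14 on AKR_F1 replicates 1 and 2, and Krt4 on AKR_F1 replicate 1, lay below the filter level. How far these signals lie above background is not known, so the sizes of these differences are uncertain.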
